A study of Mus musculus with 5 samples.

Results

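Cassette exons of ubiquitin conjugating enzymes, ubiquitin ligases and ubiquitin-specific proteases were compared between the left ventricles of control and streptozotocin-treated mice. A cassette exon is one that a transcript either holds or skips. Members were taken by gene symbol: every exon present in all 6 deposited comparisons whose gene is Huwe1 or carries a symbol starting with Usp, Ube2, Ube3, Ube4, Ubr, Fbxo, Fbxw, Fbxl, Trim or Rnf. The symbol came from the files for 75 exons and from a match of exon and intron lengths to the mouse annotation for 43. This gave 118 of 6331 exons, in 84 genes, and no exon of a Ubr gene.

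The RNA sequenced came from left ventricles of C57BL/6 mice. Both groups were injected daily for 5 days from 8 weeks of age and were sampled at 12 weeks: the Control group received citrate buffer (2 samples), and the STZ group received streptozotocin at 70 mg/kg (3 samples). Streptozotocin is toxic to pancreatic beta cells, the source of insulin, and is given to model type I diabetes without a genetic lesion. No separate animal is stated for each sample, so p-values measure the spread between samples, which may in part be technical. The library codes in the tables could not be matched to sample titles and were assigned to groups from the group sizes alone. The codes fall into 2 series that divide the libraries as treatment does, so a difference between the series and an effect of treatment cannot be told apart. The libraries are called Control A and B and STZ A, B and C.

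Ubiquitin is a small protein that is attached to other proteins through a chain of enzymes: an activating enzyme (E1) passes it to a conjugating enzyme (E2), and a ligase (E3) brings the E2 to the substrate. RING finger and TRIM ligases and the F-box proteins, which are the substrate-binding subunits of SCF ligases, let the E2 transfer ubiquitin directly. HECT ligases such as Huwe1 first take ubiquitin onto themselves, and U-box proteins such as Ube4a extend ubiquitin chains. Ubiquitin-specific proteases (USP) take ubiquitin off again. In heart muscle this system controls the turnover of sarcomere proteins, ion channels and signalling proteins, largely through the proteasome.

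The exons shown here are those whose sequence bears on the measured change, read from GRCm38, while the positions given with the values below are those of the files, in mm9. The Rnf114 exon (GRCm38 chr2:167507047-167507197, plus strand) is printed because the files hold it under 2 annotations. The capitals mark the 22 bases that are in the 151-nt annotation and not in the 129-nt one.
Rnf114 exon: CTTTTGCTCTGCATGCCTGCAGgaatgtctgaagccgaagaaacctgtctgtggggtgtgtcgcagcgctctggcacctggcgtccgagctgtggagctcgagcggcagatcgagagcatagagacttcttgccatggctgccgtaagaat
The transcript that skips this exon is printed from 15 bases before the junction onwards, with capitals at its first in-frame stop codon. The stop lay 28 nt after the skipping junction, against 393 nt after the exon when the exon was included.
Rnf114 skipping junction: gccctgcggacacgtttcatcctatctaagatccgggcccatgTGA
The exons of Usp47 (GRCm38 chr7:112080172-112080231, plus strand) and Fbxo25 (GRCm38 chr8:13938922-13938948, plus strand) are printed because they are short, lie in the coding sequence and have lengths that are multiples of 3, so the reading frame is kept either way. Capitals mark the exon, with 15 bases of its neighbours on each side.
Usp47 exon: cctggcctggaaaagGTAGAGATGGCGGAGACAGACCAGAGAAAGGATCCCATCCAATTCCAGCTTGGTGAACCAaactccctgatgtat
Fbxo25 exon: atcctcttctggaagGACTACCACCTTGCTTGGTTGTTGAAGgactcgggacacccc

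Psi, as the authors estimated it, measures inclusion: the part of the transcripts of a gene in which the exon is present, from 0 to 1. Reads of the including isoform alone and of the skipping isoform alone were also counted, and their sum is called informative reads. The read share is the inclusion-only part of that sum. It is not corrected for the lengths of the isoforms, so its level differs from Psi. The test took exons with 10 or more informative reads in each library: 101 members in 74 genes were tested and 17 were not. An exon is called where the limma p, adjusted over all 4769 tested exons, was under 0.05. Of the tested members, 25 had fewer than 10 exclusion-only reads over all libraries and 9 had 0, and none of the called exons was among them.

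Libraries held 12692236 to 20963751 event reads, the Control libraries the most. The median tested member had 159 and 207 informative reads in Control A and B and 145, 104 and 90 in STZ A, B and C. The normalised read count of member exons was taken in RPM, with all event reads of a library as the total. It was 10526 and 10515 in the Control and 12893, 14598 and 13645 in STZ. A large part of the STZ count lay on 1 event, the 56-nt exon of Trim11. Its reads that fit both isoforms numbered 4798 in Control and 103504 in STZ, and those that fit neither 6645 and 91268. The rise in this total therefore does not describe the member exons as a group. Markers of other cell types moved with the groups. The summed level of Myh11, Cald1 and Smtn (3 of 3 listed smooth muscle markers) was 2683 and 2802 RPM in Control and 824 to 1036 in STZ. Pecam1, the 1 of 4 listed endothelial markers with an event, was at 1396 and 1548 in Control and 3107 to 5332 in STZ. The fibroblast markers with an event (Fn1 and Postn, 2 of 4) were at 160 and 187 against 68.7 to 126, and the leukocyte marker Ptprc (1 of 3) at 23.2 and 34.7 against 6.81 to 19.4. The skeletal muscle marker Tnnt3 (1 of 3) was low throughout and higher in every STZ library, at 4.48 and 5.13 in Control against 11 to 18. The 5 of 8 listed heart muscle markers with an event (Ttn, Tnnt2, Ldb3, Camk2d and Myom1) summed to 43776 and 45053 RPM in Control and 38516 to 49399 in STZ, so the tissue label matched its markers. No marker with an event was at 0. The part of these cell-type differences in the results below was not tested. In bulk tissue, fewer cells of a type and less RNA per cell cannot be told apart.

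Of the 101 tested members, 15 were called, in 14 genes, with 7 higher and 8 lower in STZ. The share, 14.9%, was close to the 15.0% of all tested exons that were called, of which 4.84% were higher and 10.1% lower. With a change of mean Psi of at least 0.10 added, 10 members were called, 4 higher and 6 lower, against 10.2% of all exons (3.06% higher and 7.11% lower). The Psi of the groups did not overlap for 45 members, or 44.6%, against 42.9% of all exons. The median change of mean Psi, STZ minus Control, was 0 over the tested members and -0.01 over all exons, and the median absolute change was 0.04 against 0.035. Ubiquitin ligase and protease exons as a group were thus called about as often as other exons, and the results lie in single exons. Without 1 library the count of called members was 8 (Control A or Control B left out), 9 (STZ B), 10 (STZ C) or 11 (STZ A). In the authors' deposited tables, 4 of the 118 members had a Psi difference of 0.20 or more, always of 1 sign, together with a Bayes factor of 10 or more in each of the 6 comparisons, against 3.22% of all exons. They are the exons of Huwe1, Rnf138 and Rnf207 and the 129-nt annotation of Rnf114.

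**Figure D1:**
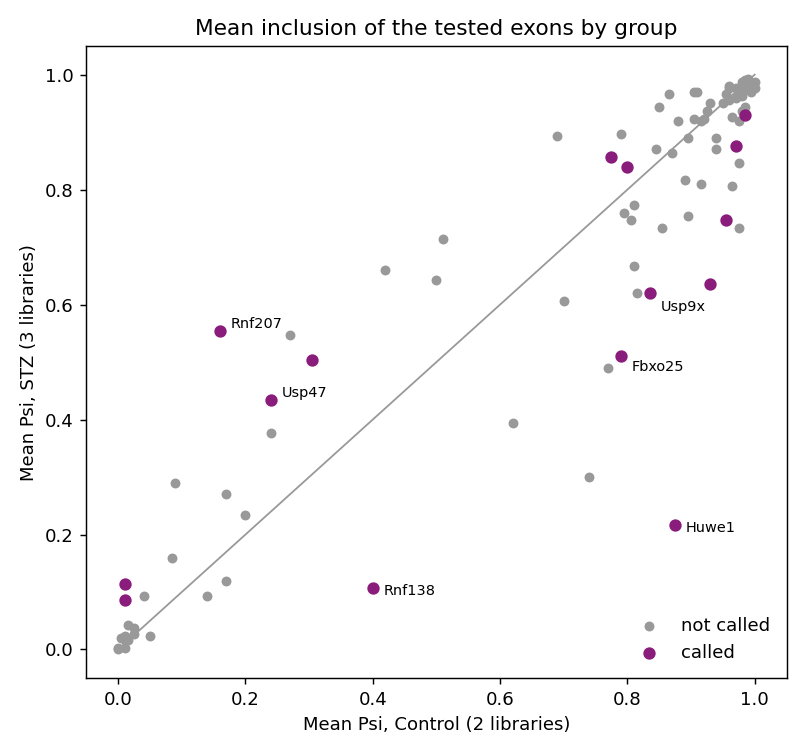
Mean Psi in the STZ libraries (n = 3, vertical axis) against the Control libraries (n = 2, horizontal axis) for the 101 tested member exons, 1 point per exon, with the 15 called exons in another colour and the diagonal marking no change. Most exons lie near the diagonal, and Huwe1 lies farthest below it, at 0.217 against 0.875.

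Among the RING finger genes, 6 of 37 tested exons were called (16.2%, against 15.0% of all tested exons), 3 higher and 3 lower. Rnf138, a ligase that takes part in DNA repair, lost most of a 108-nt coding exon (mm9 chr18:21182910-21183017). Its Psi was 0.40 in both Control libraries and 0.10, 0.11 and 0.11 in the STZ libraries. The groups were far apart and the values within each differed by no more than 0.01. These values are rounded to 2 decimals, so their spread may be understated. The read shares of the 2 Control libraries were 0.652 and 0.596. Inclusion-only reads numbered 101 over the Control and 40 over the STZ libraries, and exclusion-only reads 62 and 109, so the mean read share was 0.624 and 0.271. Mean Psi was 0.40 ± 0 (SD, n = 2) in Control and 0.107 ± 0.00577 (SD, n = 3) in STZ (limma, adjusted p = 0.00397). The call was kept when any 1 library was left out. By the log odds of reads the exon was also called, with a larger adjusted p (limma, 0.0226). The other Rnf138 exon, of 57 nt, was higher in mean in STZ, at 0.967 against 0.865, without being called (limma, adjusted p = 0.201).

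Rnf114, a RING and zinc finger ligase, had an exon of 151 nt (mm9 chr2:167332547-167332697, coding) with Psi of 0.96 and 0.95 in Control and 0.72, 0.77 and 0.75 in STZ. All 3 STZ libraries lay below both Control libraries. Exclusion-only reads went from 21 over the Control libraries to 181 over the STZ libraries, beside 1316 and 1277 inclusion-only reads. The mean Psi fell from 0.955 ± 0.00707 (SD, n = 2) to 0.747 ± 0.0252 (SD, n = 3) (limma, adjusted p = 0.00715), and the call was kept without any 1 library. The annotated transcript that skips this exon is of the nonsense-mediated decay class, and the junction printed above shows its early stop codon. The 129-nt annotation was called too (limma, adjusted p = 0.0110), with mean Psi of 0.930 in Control and 0.637 in STZ. It shares the exclusion-only reads of the 151-nt annotation, so the pair is not independent. Its call was lost without Control A (adjusted p = 0.0551) and without STZ B (adjusted p = 0.0525).

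Rnf207, a RING finger protein of heart muscle linked to cardiac repolarisation, had a 192-nt exon with higher Psi in STZ (mm9 chr4:151690457-151690648, minus strand). Psi was 0.14 and 0.18 in Control and 0.62, 0.50 and 0.54 in STZ, with no overlap. The mean rose from 0.160 ± 0.0283 (SD, n = 2) to 0.553 ± 0.0611 (SD, n = 3) (limma, adjusted p = 0.0189). Exclusion-only reads went from 103 and 94 in Control to 8, 7 and 6 in STZ, and inclusion-only reads from 105 and 163 to 55, 59 and 37. Both classes were thus lower in STZ, and the exclusion-only reads fell further. Most reads on this event fitted neither isoform, 7625 over the Control and 1337 over the STZ libraries. The mean read share was 0.570 in Control and 0.876 in STZ. The exon is annotated in the 3' UTR of a transcript of the nonsense-mediated decay class, so it is not translated there. The frame of a protein-coding transcript that skips the exon was also carried into it, and met a stop codon 70 nt into the exon. The call rested on the number of libraries: it held without STZ A (adjusted p = 0.0380), and was lost without Control A (0.0872), Control B (0.0752), STZ B (0.0529) or STZ C (0.0707).

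Rnf130, a RING finger ligase of the membrane, had a small called difference in a 94-nt coding exon (mm9 chr11:49912748-49912841). Psi was 0.80 in both Control and 0.84 in all 3 STZ libraries (limma, adjusted p = 0.00761), and the log odds of its reads did not pass the test (adjusted p = 0.472). The most-read exon of the RING finger genes was the 152-nt coding exon of Rnf14, a ligase of the RBR class that is a cofactor of the androgen receptor. Its Psi was 0.795 ± 0.0212 (SD, n = 2) in Control and 0.760 ± 0.0173 (SD, n = 3) in STZ and did not pass the test (limma, adjusted p = 0.240). The 4 exons of Rnf14 changed by -0.05 to 0.00333 in mean Psi and none was called.

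Changes under 0.10 need a caution that applies to 5 of the 15 called exons, those of Rnf130, Fbxw4, Fbxo9, Ube2j1 and Usp2. Psi is deposited with 2 decimals, and several exons have the same rounded value in every library of a group, so that their spread is understated. Data were simulated on these exons and read depths, with a spread of 0.1 or 0.25 on the logit scale. Of the 4769 exons, 100 were changed by 1 and 100 by 2 on that scale, and none by less. There, 24 of 32 and 25 of 32 calls with a change under 0.10 were exons that had not been changed. Among calls with a change of at least 0.10 that number was 1 of 48 and 1 of 24. The simulations called 80 and 56 exons, against 713 in the data. These shares therefore do not give the error rate of the calls reported here.

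**Figure D2:**
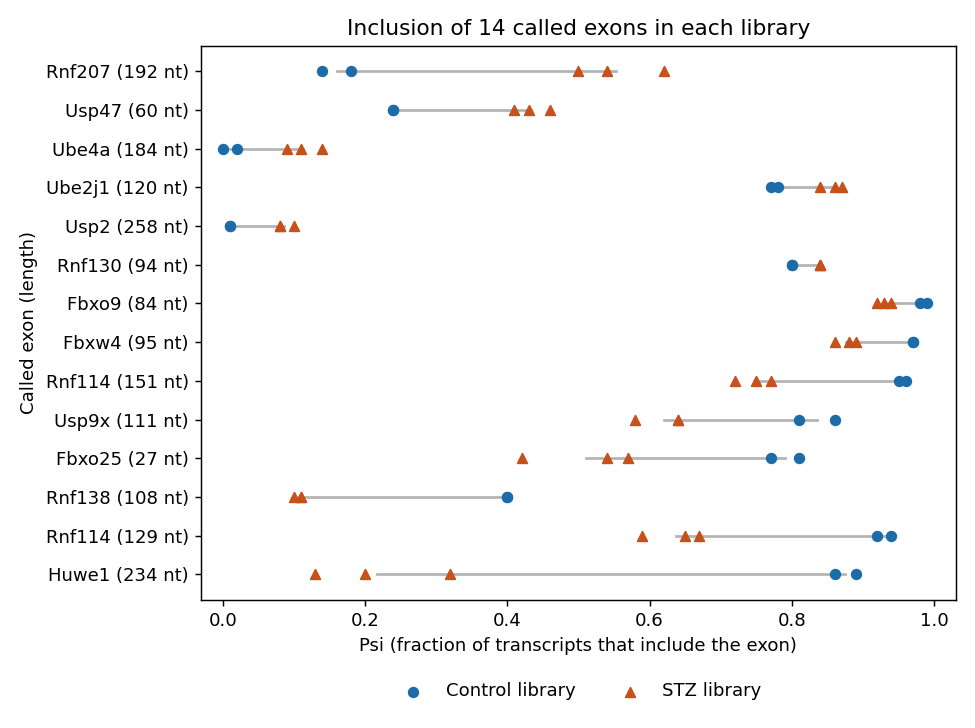
Psi of 14 of the 15 called member exons (rows) in each library, on a horizontal axis from 0 to 1, with Control libraries (n = 2) and STZ libraries (n = 3) in separate colours and markers and the grey lines joining the group means. The groups do not overlap for any of these exons, which were chosen by the test on these same values, so this is no further result. Of all tested exons, 42.9% did not overlap. The widest separations are those of Huwe1 and Rnf207.

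The HECT and U-box genes had 7 tested exons, of which 2 were called (28.6%, against 15.0% of all tested exons), 1 in each direction. Huwe1, a giant HECT ligase with substrates that include p53 and Mcl1, had the largest change of any tested member. Its 234-nt exon (mm9 chrX:148293998-148294231) had Psi of 0.89 and 0.86 in Control and 0.20, 0.13 and 0.32 in STZ. The highest STZ library stood 0.54 below the lower Control library, which is the smallest difference over the 6 comparisons in the authors' deposited tables. The mean fell from 0.875 ± 0.0212 (SD, n = 2) to 0.217 ± 0.0961 (SD, n = 3) (limma, adjusted p = 0.0231). Inclusion-only reads were 215 and 334 in Control and 46, 8 and 5 in STZ, while exclusion-only reads were 3 and 11 in Control and 29, 5 and 5 in STZ. Inclusion reads were fewer in every STZ library, exclusion reads exceeded those of both Control libraries only in STZ A, and STZ B and C held 13 and 10 informative reads, so the exon was not tested where 20 were asked for. All Huwe1 events together went from 47.3 and 56.9 RPM in Control to 31.9, 12.8 and 7.56 in STZ. The exon is annotated only in 3 transcripts of the retained-intron class. Its length is a multiple of 3. The frame of a protein-coding transcript that skips the exon was carried into it and met no stop codon there. The call held without STZ C (adjusted p = 0.0347) and was lost without Control A (0.113), Control B (0.110), STZ A (0.0769) or STZ B (0.0529). The other Huwe1 exons, of 47 nt and 108 nt, had too few reads to be tested, with mean Psi of 0.330 and 0.0850 in Control and 0.300 and 0.0900 in STZ.

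Ube4a, which extends ubiquitin chains, had 5 exons, more than any other member gene. A 184-nt exon (mm9 chr9:44764625-44764808, minus strand) was almost always skipped in Control, at Psi of 0.02 and 0.00, and was at 0.09, 0.11 and 0.14 in STZ. Inclusion-only reads were 7 and 2 in Control and 23, 26 and 25 in STZ, beside 55 and 104 against 50, 25 and 22 exclusion-only reads. Every STZ library held more inclusion reads than either Control library although the Control libraries were deeper. The mean was 0.01 ± 0.0141 (SD, n = 2) in Control and 0.113 ± 0.0252 (SD, n = 3) in STZ (limma, adjusted p = 0.0283). The exon lies in a transcript of the nonsense-mediated decay class, with 134 nt of it coding. The call was lost whichever library was left out (adjusted p = 0.0595 to 0.0987), with Psi clipped to 0.001 (0.115) or 0.05 (0.0844), and on untransformed Psi (0.0526). The 305-nt coding exon, the most read of this role, was at 0.940 ± 0.0141 (SD, n = 2) and 0.890 ± 0.0721 (SD, n = 3) and was not called (limma, adjusted p = 0.591). Over the 5 exons the change ran from -0.28 to 0.103, and the lowest value, that of a 69-nt exon of the 5' UTR, had Control values of 0.64 and 0.90 that reach into the STZ range.

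The F-box genes had 13 tested exons, of which 3 (23.1%) were called, all lower in STZ. Of all tested exons 15.0% were called, with 4.84% higher and 10.1% lower, so calls leaned to lower in general. Fbxo25, an F-box protein found in the nucleus, lost part of the 27-nt coding exon printed above (mm9 chr8:13938922-13938948). Psi was 0.81 and 0.77 in Control and 0.54, 0.57 and 0.42 in STZ. The mean fell from 0.790 ± 0.0283 (SD, n = 2) to 0.510 ± 0.0794 (SD, n = 3) (limma, adjusted p = 0.0493). Inclusion-only reads were 52 and 65 in Control and 27, 20 and 25 in STZ, and exclusion-only reads were 7 and 9 against 20, 8 and 21. The call lay close to the threshold. It was lost whichever library was left out (adjusted p = 0.0636 to 0.191), with Psi clipped to 0.05 (0.0724), untransformed (0.0572) and with no filter on reads (0.0556).

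Fbxw4, a WD-repeat F-box protein known from limb development, had a 95-nt coding exon (mm9 chr19:45705355-45705449, minus strand) at Psi of 0.97 in both Control libraries and 0.89, 0.86 and 0.88 in STZ (limma, adjusted p = 0.00874). Exclusion-only reads numbered 3 over the Control and 27 over the STZ libraries, beside 275 and 390 inclusion-only reads. Its length is not a multiple of 3: on skipping, the first in-frame stop came 93 nt after the junction, against 466 nt after the exon when it was included. The call was lost without Control A (adjusted p = 0.0562) or Control B (0.0529). Fbxo9, an SCF subunit that acts on regulators of the mTOR pathway, had an 84-nt coding exon (mm9 chr9:77952078-77952161, minus strand) at 0.98 and 0.99 in Control and 0.93, 0.94 and 0.92 in STZ (limma, adjusted p = 0.0361). That difference rested on exclusion-only reads numbering 2 in Control and 9 in STZ, and the log odds of reads did not pass the test (adjusted p = 0.0931). Its call held without Control A (adjusted p = 0.0444), was lost without Control B (0.0712), STZ A (0.102), STZ B (0.102) or STZ C (0.118), and was lost with Psi clipped to 0.05 (0.176). Fbxw5, a substrate receptor with WD repeats, had the most-read F-box exon (158 nt, coding). Its Psi was 0.975 ± 0.00707 (SD, n = 2) and 0.920 ± 0.0265 (SD, n = 3), not called from Psi (limma, adjusted p = 0.0691). Its exclusion-only reads went from 10 to 38 while inclusion-only reads went from 2647 to 1543, and the log odds of reads passed the test (limma, adjusted p = 0.0262).

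A larger but uncalled difference was that of Fbxo34, whose 110-nt exon of the 5' UTR had Psi of 0.57 and 0.91 in Control and 0.36, 0.25 and 0.29 in STZ (limma, adjusted p = 0.142). The groups did not overlap, and the Control libraries differed by more than the lower of them differed from any STZ library. Fbxw11, the beta-TrCP paralogue that recognises phosphorylated beta-catenin, had a 63-nt coding exon at 0.815 ± 0.0354 (SD, n = 2) in Control and 0.620 ± 0.0721 (SD, n = 3) in STZ (limma, adjusted p = 0.0819).

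Ubiquitin-specific proteases had 20 tested exons, of which 3 were called (15%, against 15.0% of all tested exons), 2 higher and 1 lower. Usp47, a protease that acts on DNA polymerase beta in base excision repair, included its 60-nt coding exon printed above (mm9 chr7:119223686-119223745) more often in STZ. Psi was 0.24 in both Control libraries and 0.43, 0.46 and 0.41 in STZ. The mean rose from 0.240 ± 0 (SD, n = 2) to 0.433 ± 0.0252 (SD, n = 3) (limma, adjusted p = 0.0126). The Control values are equal after rounding, so their spread may be understated. By the log odds of reads the adjusted p was larger (limma, 0.0470). Inclusion-only reads were 155 and 217 in Control and 320, 216 and 134 in STZ, and exclusion-only reads 176 and 239 against 139, 99 and 69. This is the best covered of the called exons with a change of at least 0.10 and a Psi well away from 0 and 1, and its read share rose from 0.472 to 0.681. The call was lost without Control A (adjusted p = 0.0726) or Control B (0.0684). The other Usp47 exon, also of 60 nt and coding, was at 0.810 ± 0 (SD, n = 2) and 0.773 ± 0.0710 (SD, n = 3) and was not called (limma, adjusted p = 0.748), so the 2 exons of the gene were not called together.

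Usp9x, an X-linked protease that stabilises Mcl1, included a 111-nt exon of the 5' UTR (mm9 chrX:12649341-12649451) less in STZ. Psi was 0.81 and 0.86 in Control and 0.64, 0.64 and 0.58 in STZ, a fall of the mean from 0.835 ± 0.0354 (SD, n = 2) to 0.620 ± 0.0346 (SD, n = 3) (limma, adjusted p = 0.0309). The read counts behind it were thin: exclusion-only reads were 2 and 2 in Control and 7, 6 and 2 in STZ. The call was lost whichever library was left out (adjusted p = 0.0718 to 0.109). Usp2, a protease with isoforms that differ at the N-terminus and that is rhythmic in many tissues, had a 258-nt exon (mm9 chr9:43876121-43876378, 5' UTR) at 0.01 in both Control libraries and 0.08, 0.08 and 0.10 in STZ (limma, adjusted p = 0.00614). Inclusion-only reads were 2 and 3 in Control and 7, 6 and 5 in STZ, and exclusion-only reads 39 and 57 against 10, 7 and 6, so both classes moved, on few reads. The call was kept without any 1 library. It was lost when Psi was clipped to 0.05 (adjusted p = 0.0610), because both Control values sit at the lower bound of the scale, and the exon was not tested at 20 informative reads.

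Several protease exons lay just outside the threshold. Usp21, which removes ubiquitin from histone H2A, had a 60-nt coding exon at 0.96 and 0.99 in Control and 0.65, 0.80 and 0.75 in STZ (limma, adjusted p = 0.0525). Usp48 had a 54-nt coding exon at 0.11 and 0.07 against 0.24, 0.37 and 0.26 (adjusted p = 0.0563). Uspl1, which despite its name acts on the ubiquitin-like protein SUMO, had a 169-nt exon at 0.29 and 0.25 against 0.51, 0.47 and 0.66 (adjusted p = 0.0825). Usp15, a protease of TGF-beta signalling, had an 87-nt coding exon at 0.52 and 0.50 against 0.65, 0.78 and 0.71 (adjusted p = 0.0865). In each of these exons the groups did not overlap, as in 42.9% of all tested exons. They were picked for lying near the threshold of a test on the same values, so this is no further result. All 3 Usp4 exons had lower mean Psi in STZ, the 141-nt exon at 0.847 against 0.975 (adjusted p = 0.0685) and the overlapping exons of 104 and 102 nt at 0.937 against 0.980 and 0.817 against 0.890. The most-read protease exon, a 72-nt coding exon of Usp19, was at 1.00 in both Control libraries and at 1.00, 0.98 and 0.98 in STZ (limma, adjusted p = 0.362). It passed the test without STZ A (0.00676), where the rounded values within each group were equal, so that their spread was understated.

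Of 18 tested Ube2 exons of the conjugating enzymes, 1 was called (5.56%, against 15.0% of all tested exons). In Control, 10 of the 18 had a mean Psi of at least 0.95 and 3 of at most 0.05, where Psi has little room to move in one direction. These made up 72.2% of the conjugating enzyme exons, against 48.4% of all tested exons. Mean Psi changed by less than 0.05 in 15 of the 18, or 83.3%, against 57.9% of all tested exons, so their small changes cannot be told apart from the bounds of the scale. That call was a 120-nt coding exon of Ube2j1 (mm9 chr4:33132055-33132174), an enzyme anchored in the endoplasmic reticulum that acts in the disposal of misfolded proteins. Psi was 0.78 and 0.77 in Control and 0.86, 0.84 and 0.87 in STZ (limma, adjusted p = 0.0357), and the read share moved only from 0.916 to 0.932. The log odds of reads did not pass the test (adjusted p = 0.528). The call held without STZ B (adjusted p = 0.0417), was lost without Control A (0.135), Control B (0.164), STZ A (0.102) or STZ C (0.0824), and was lost with Psi clipped to 0.05 (0.0528). The most-read conjugating enzyme exon, a 126-nt coding exon with 10194 informative reads that the files label Ube2v2, matched Ube2v1 by length. Both are inactive E2 variants that pair with Ube2n. Its Psi was 0.980 ± 0 (SD, n = 2) and 0.97 ± 0.01 (SD, n = 3) and was not called (limma, adjusted p = 0.393). The 53-nt exon of Ube2h, an enzyme that modifies histones, was at 0.855 in Control and 0.733 in STZ and was not called (limma, adjusted p = 0.110).

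None of the 6 tested TRIM exons was called by limma on Psi, against 15.0% of all tested exons. An unadjusted p under 0.05 was found for 1 of the 6, against 32.0% of all tested exons. The log odds of reads called 2 of the 6 and 20.3% of all tested exons. Trim33, a ligase that acts on Smad4, had a 51-nt coding exon at 0.67 and 0.71 in Control and 0.93, 0.87 and 0.88 in STZ, with no overlap (limma, adjusted p = 0.0535, and 0.0398 by the log odds of reads). Trim72, also called MG53, which seals membrane tears in striated muscle, had a 23-nt coding exon with 7133 informative reads. It was included at Psi of 1.00 in both Control libraries and 0.97, 0.99 and 0.97 in STZ. Exclusion-only reads were 0 of 5261 in Control and 21 beside 1851 inclusion-only reads in STZ. It was not called from Psi (limma, adjusted p = 0.362), was called without STZ B (0.00212) and with Psi clipped to 0.001 (0.0252), and was called by the log odds of reads (0.00820). Without STZ B the rounded values within each group were equal, so that their spread was understated.

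**Figure D3:**
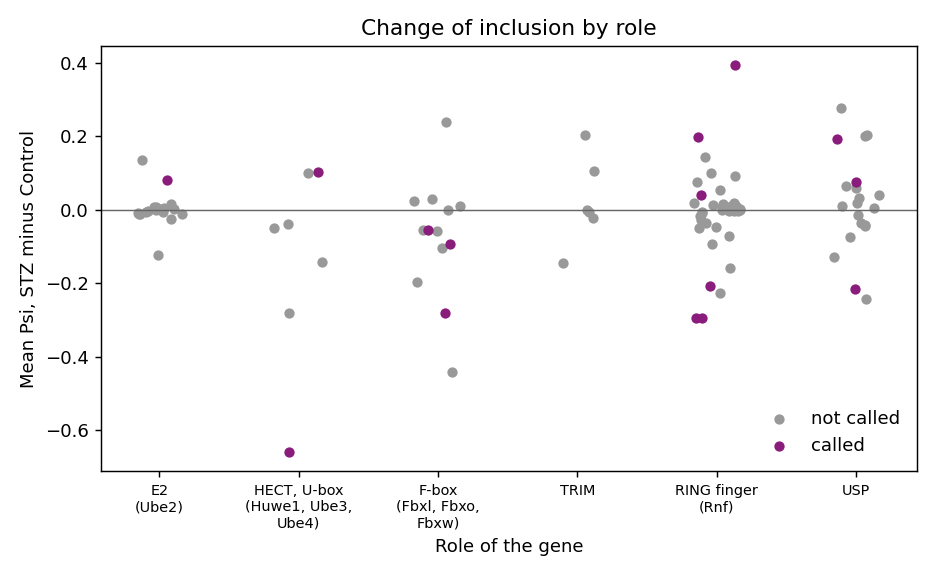
Change of mean Psi (STZ minus Control, vertical axis) of each tested member exon by role of its gene (horizontal axis), with 1 point per exon, called exons in purple and other exons in grey. Of the 18 conjugating enzyme exons 15 lie within 0.05 of no change, with 13 of the 18 near the bounds of Psi in Control (at least 0.95 or at most 0.05), and Huwe1 stands lowest at -0.658.

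Counting reads in place of Psi changed which members were called. The log odds of inclusion-only against exclusion-only reads called 19 members, 6 higher and 13 lower against 7 and 8 by Psi. This share, 18.8%, was near the 20.3% of all tested exons that were called by reads, of which 6.56% were higher and 13.7% lower. Of the 19 members, 11 were among the 15. The 8 others, named after their values were seen, were exons of Trim72, Usp21, Usp4 (141 nt), Usp5, Fbxw5, Ube2j2, Usp48 and Trim33. Usp5, which disassembles free ubiquitin chains, had 7 exclusion-only reads beside 2021 inclusion-only reads in Control and 25 beside 1706 in STZ (limma on log odds, adjusted p = 0.0227). Ube2j2, an E2 of the endoplasmic reticulum, had 1 exclusion-only read beside 1041 in Control and 23 beside 1585 in STZ (adjusted p = 0.0290). Of the 15, 4 were not called by reads, those of Rnf130, Ube2j1 and Fbxo9 among them.

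**Figure D4:**
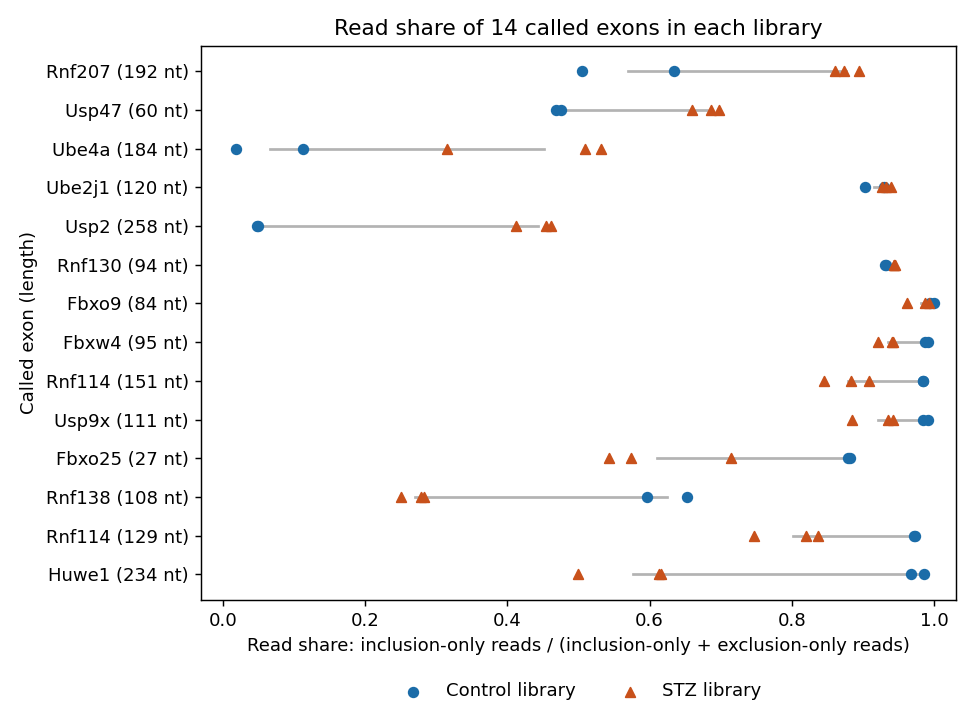
Read share of 14 of the 15 called member exons in each library: inclusion-only reads over the sum of inclusion-only and exclusion-only reads, from 0 to 1 on the horizontal axis, with Control (n = 2) and STZ (n = 3) libraries as separate markers and grey lines joining the group means. The share separates the groups widely for Rnf138 (0.624 and 0.271) and Usp2 (0.0494 and 0.443), and hardly for Rnf130 (0.931 and 0.945).

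By annotated place, 57 tested members lay in coding sequence, and 8 of these were called. Of 18 tested exons in the 5' UTR, 3 were called, those of Usp9x and Usp2 among them. Of the remaining tested exons, 13 were partly coding (1 called), 1 was in the 3' UTR (called), 3 were in non-coding transcripts (1 called) and 9 matched no annotated exon (1 called). Of all tested exons 15.0% were called. Place was annotated for the members alone, so these counts describe them and set no place apart. The length was a multiple of 3 for 51 of the 101 tested members, or 50.5%, against 45.7% of all tested exons. The median length was 102 nt against 107 nt. In Control the mean Psi was at least 0.95 for 35 members, at most 0.05 for 15 and between for 51. Of the called members, 10 were in that middle range (19.6% of those tested there) and 5 at the ends (10%), near the 17.4% and 12.3% of all tested exons.

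Other ubiquitin pathway genes were described from lists of gene names. Over all of these lists 23 of 150 tested exons were called, or 15.3%, with 6 higher and 17 lower. That share was close to the 15.0% of all tested exons, of which 4.84% were higher and 10.1% lower. Of 40 exons of cullins and their adaptors and regulators, 8 (20%) were called, 2 higher and 6 lower, and 2 of the 8 changed by at least 0.10. The largest change was that of Kbtbd3, a BTB-kelch adaptor protein, which fell from 0.715 to 0.283 (limma, adjusted p = 0.0306). Klhl26, another BTB-kelch protein, fell from 0.725 to 0.403 (0.0396), on 1 exclusion-only read in Control and 7 in STZ. Its read share moved only from 0.994 to 0.908. Next came Dcun1d2, which promotes neddylation of cullins and fell from 0.985 to 0.893 (0.0209) with 1 exclusion-only read in each group. The anaphase promoting complex, a large RING ligase of the cell cycle, had 4 of 9 exons called, 1 higher and 3 lower. With so few exons the share, 44.4% against 15.0% of all tested exons, says little about the complex. Only 2 of the 4 changed by at least 0.10, both in Anapc16. Anapc16 had a 167-nt exon that fell from 0.960 to 0.797 (adjusted p = 0.00692), whereas its 50-nt exon rose from 0.120 to 0.270 (0.0321), and Cdc26 fell from 0.975 to 0.927 (0.0274).

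Of 37 exons of other RING, RBR and U-box ligases, 5 were called, 2 higher and 3 lower. Traf6, a ligase of innate immune signalling, had a 203-nt exon that fell from 0.835 ± 0.106 (SD, n = 2) to 0.123 ± 0.0503 (SD, n = 3) (limma, adjusted p = 0.0291). Traf7 fell from 0.975 to 0.797 (adjusted p = 0.0252), and March7, a membrane-associated ligase, rose from 0.820 to 0.987 (0.0159). Of 16 exons of ubiquitin receptors and shuttle proteins, 3 were called. Nbr1, an autophagy receptor, fell from 0.95 to 0.623 (adjusted p = 0.0129), Ubqln1, a proteasome shuttle, rose from 0.350 to 0.657 (0.0283), and Tom1, an endosomal adaptor, fell from 0.940 to 0.760 (0.0135). Among 14 exons of other deubiquitinases, Bap1, the histone deubiquitinase, fell from 0.985 to 0.877 (0.0349) and Otud5 from 0.96 to 0.95 (0.0163). Of 17 proteasome exons, 1 was called, that of the assembly chaperone Psmg4, which fell from 0.365 to 0.210 (0.0130). No exon of 10 in other HECT ligases was called by limma, with 2 at an unadjusted p under 0.05 and 0 by the log odds of reads, and none of 7 exons of SUMO genes, with 1 and 1. Of all tested exons, 15.0% were called, 32.0% had an unadjusted p under 0.05 and 20.3% were called by the log odds of reads. The activating enzymes had no tested exon. The caution on changes under 0.10 also holds for the calls of Dcun1d2, Cdc26 and Otud5.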

How the data were processed

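Left ventricle RNA of 2 Control and 3 STZ samples was sequenced. Per the submitters' processing notes, CASAVA 1.8.2 and TopHat were used with mm9, and the authors made 6 comparisons of 1 library with another by MISO, per the file headers. The authors deposited Psi as a fraction, rounded to 2 decimals. Read classes are deposited by the authors as counts per exon and library (unit recorded as other), and the Bayes factor as a ratio, per the file headers. The 36 other per-library columns were not used.

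Of 6616 exons, 6331 were in all 6 tables; 3502 were named by the files and 2477 by matching lengths to GENCODE transcripts (GRCm38), while 352 stayed unnamed. Where both gave a gene, 97.6% of 3348 were the same. Psi was clipped to 0.01 to 0.99, put on the logit scale and compared in limma 3.58.1 (two-sided, variance trend on log2 mean informative reads), with Benjamini-Hochberg adjustment over 4769 exons with at least 10 informative reads in every library. For the log odds of reads, 0.5 was added to each class. Array weights, other clips and filters, and leaving out each library were the alternatives. The fit was tested on simulated data.

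Members and gene lists were chosen with earlier results of these data known. Named exons are every called member except 1 that is not reported here, the most-read exon of each role, those past the authors' threshold, genes with at least 4 exons, and up to 3 called exons per list, with other named exons chosen after their values were seen. Read counts limit precision: intervals were not computed, since counts are not independent molecules.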

Additional observations from a re-analysis of the deposited data

How the results depend on the processing

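The 15 called members became 13 at 20 informative reads, 14 with no filter, 17 and 12 with Psi clipped to 0.001 and 0.05, 19 by the log odds of reads (6 higher and 13 lower, against 7 and 8, where all exons went from 713 to 966, with 313 higher and 653 lower), 16 with array weights and 15 on untransformed Psi. Leaving out 1 library gave 8 to 11 members, and 282 to 466 called exons in place of 713 among all tested, of which 222 to 349 were among the 713, so a single library moves that count by over 1.5 times. Without Control A 282 exons and 8 members were called, without Control B 310 and 8, without STZ A 466 and 11, without STZ B 304 and 9, and without STZ C 353 and 10. The authors' threshold in all 6 comparisons gave 4 members and 204 exons. With symbols from the files alone 9 of 64 members were called, and with 1 exon per gene 10 of 74. The calls with a change of at least 0.10, a threshold added after seeing the data, numbered 10 members and 485 exons. Of the 15 calls, 4 were kept in all 5 fits without 1 library (Rnf138, Usp2, Rnf114 of 151 nt and Rnf130) and 4 were lost in all 5, Ube4a of 184 nt, Usp9x and Fbxo25 among them. Of the 21 exons for which the alternatives were run (the called members and the most-read exon of each role), 0 reversed direction. The cause of these differences was not tested, beyond the fewer samples or exons in a fit. In simulated data with a spread of 0.1 on the logit scale, 45 of 100 exons changed by 2 and 10 of 100 changed by 1 were called, so at this sample size an uncalled exon is not shown to be unchanged. No paired analysis was possible because the columns carry no replicate numbers of the labels. Exons with few exclusion-only reads, such as those of Usp9x and Fbxo9, are limited by depth.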

Other observations

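Some exons belong to ubiquitin genes by length match but carry another name in the files, and were left out of the counts above. An exon of 163 nt that matches Ube2j2 had mean Psi of 0.790 in Control and 0.650 in STZ over 1808 informative reads (limma, adjusted p = 0.0683). Another 163-nt exon matches Usp8, an endosomal protease, and was at 0.985 and 0.983 (limma, adjusted p = 1). A 102-nt exon that matches Fbxw11 was at 0.465 and 0.237 with 85 informative reads in all, too few to be tested. It lies in the gene whose 63-nt exon also had a lower mean Psi in STZ. A 141-nt exon that fits either Rnf170 or a neighbouring gene model was at 0.985 and 0.947 (limma, adjusted p = 0.283).

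Among the 17 untested members, the 121-nt coding exon of Rnf41, a ligase of the ErbB3 receptor, had Psi of 0.19 and 0.16 in Control and 0.32, 0.68 and 0.79 in STZ, on 5 informative reads in Control and 0 in STZ. The 71-nt exon of Usp11 was at 0.27 and 0.06 in Control and 0.45, 0.38 and 0.66 in STZ, with 3 inclusion-only reads to 10 exclusion-only in Control and 17 to 10 in STZ. The 105-nt coding exon of Rnf214 was at 0.15 and 0.17 in Control and 0.04, 0.09 and 0.09 in STZ. The 67-nt exon of Ube3a, the ligase lost in Angelman syndrome, was at 0.32 and 0.21 in Control and 0.15, 0.13 and 0.19 in STZ, with 49 inclusion-only reads to 12 exclusion-only in Control and 13 to 20 in STZ.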
